A study of Ambystoma mexicanum with 12 samples.

Results

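The loci described here are stretches of the axolotl genome that were transcribed in regenerating forelimb blastemas and that the reference annotation does not hold. They were chosen by structure alone. A locus was taken when the merged transcript assembly gave it no reference gene, only transcripts named by the assembler, exactly 1 exon in its transcript, and a span that overlapped the span of no reference gene on either strand. Of 36917 genes in the count table, 5469 met this description. A total of 3468 of them also had at least 10 counts in at least 6 libraries, and these 3468 are the loci reported below, out of 25879 genes that passed that filter in all. Of the 3468, 30 passed the filter through the libraries of 1 treatment only, with no library of the other at 10 counts or more.

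The study asked which genes respond when limb regeneration is shifted from distal to proximal by Am580, an agonist selective for the retinoic acid receptor alpha. Large juvenile albino axolotls had their forelimbs amputated through the zeugopod, the lower segment of the limb, were kept from 24 h afterwards in 25 nM Am580 or in an equal volume of the solvent DMSO for 5 days, and gave their blastemas 24 h after that, with the epidermis peeled away. Each of the 6 Am580 and 6 DMSO libraries was a stranded poly-A library of the mesenchyme of 1 right blastema of 1 animal. The Am580 animals sequenced were those whose other limb later showed the most duplication and the DMSO animals were ones with none, so that the choice of animals and the treatment cannot be told apart.

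Single-exon loci without a gene name are a mixed class in any assembly of short reads. Known sources of such transcripts are ends of messenger RNAs that run past the annotated gene, non-coding RNAs, copies of transposable elements such as LINE-1 (a retroelement that copies itself through an RNA), processed pseudogenes, and fragments of genes whose remaining exons were not joined to them. A spliced read tells an assembler on which strand an exon lies, so an exon with no splice junction often has no strand. The axolotl genome is very large and rich in repeats, and the assembly used for the alignment, AmexG_v3.0.0, is in many scaffolds.

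The library totals ranged from 27226012 to 43793138 counts, and 3 counts, taken here as the limit of detection, corresponded to 0.0637 to 0.111 CPM, that is counts scaled to library size, here with trimmed mean of M values (TMM) factors. Of 10 markers of connective tissue listed, 8 were found by symbol, and their summed level was 10700 to 19200 CPM in DMSO and 9120 to 15900 CPM in Am580 libraries, with 0 of 8 called. Summed epidermal markers were at 21.8 to 125 CPM in DMSO and 13 to 60 CPM in Am580 libraries, with 1 of 6 tested lower. Summed muscle markers ranged from 2640 to 14000 CPM over the 12 libraries, so muscle RNA was present in unequal amounts. The osteoclast markers moved with treatment, from 1460 to 2310 CPM in DMSO to 150 to 382 CPM in Am580 libraries, and all 4 tested were lower. Of 8 macrophage markers listed, 4 were found by symbol, as 5 genes. Their sum was 1030 to 1500 CPM in DMSO and 636 to 931 CPM in Am580 libraries, with 2 of 5 tested lower and 1, MARCO, higher. MRC1, a listed marker that was not found by symbol, is reported by the study as higher with Am580. The other lists were found in part too, 6 of 9 epidermal, 5 of 8 muscle, 4 of 6 osteoclast, 4 of 6 cartilage and 5 of 8 erythroid markers. Cartilage markers (60.1 to 549 and 82.3 to 286 CPM) and erythroid markers (14.9 to 138 and 22.9 to 101 CPM) overlapped between treatments, with 0 called. In bulk tissue, fewer cells of a type and less RNA per cell cannot be told apart.

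The loci were short and mostly low. Their exons were 200 to 20185 bases long with a median of 962 bases, against 2210 bases for all tested genes. Mean levels ran from 0.194 to 7500 CPM with a median of 1.25 CPM, against 5.2 CPM over all tested genes. Per kilobase of exon, the median level was 1.2 CPM per kb against 2.51 CPM per kb over all tested genes. Of the 3468 loci, 2159 had at least 10 counts in each of the 12 libraries. They lay on 2880 scaffolds, of which 2430 held 1 locus, and no scaffold held more than 6. For 2672 loci the assembly gave no strand, while 385 lay on the plus and 411 on the minus strand. The scaffold of 1804 loci also held a reference gene, and that of 1664 did not. An overlap with another unannotated locus was found for 338, and in these reads cannot be assigned with certainty.

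The loci took 3.28 to 4.63% of the counts of a library, and a few of them made up most of that. The 2 highest loci held 34.8% of all counts in the class, the 4 highest 48.1% and the 10 highest 57.4%. The highest was MSTRG.28647 (scaffold AMEXG_0030108243, 49385 to 52955, plus strand, 3571 bases), which was at 4180, 7660 and 11000 CPM (lowest, median, highest) in DMSO and at 3520, 7880 and 9570 CPM in Am580 libraries. The libraries DMSO 2 and Am580 4 were the lowest of their treatments for this locus and the treatments overlapped (log2 fold change -0.00 ± 0.26 (SE, n = 6 per treatment), adjusted p = 0.994, edgeR quasi-likelihood test). MSTRG.15466 followed with 4610, 6790 and 8130 CPM in DMSO and 4540, 6660 and 8730 CPM in Am580 libraries. Its ranges in both treatments nearly coincided. MSTRG.4116, which overlaps the unannotated locus MSTRG.4115, was at 1670, 3890 and 5920 CPM in DMSO and at 1590, 3940 and 5160 CPM in Am580 libraries. MSTRG.7263 was at 839, 1550 and 2150 CPM in DMSO and at 844, 1730 and 2180 CPM in Am580 libraries. In both of these the lowest libraries were again DMSO 2 and Am580 4. Per kilobase these 4 loci stood at 2100, 2490, 2550 and 1670 CPM per kb in the order given, and none was called.

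To ask which of the loci responded to Am580, Am580 and DMSO libraries were set against each other in edgeR (quasi-likelihood) over all 25879 genes, and a locus was called at a Benjamini-Hochberg adjusted p under 0.05. A total of 381 of the 3468 loci, 11%, were called, against 14.1% of all tested genes. Of these 236 were higher with Am580 (6.81%, against a background of 6.93%) and 145 were lower (4.18%, against 7.21%). The share of calls that were higher was 61.9%, against 49% over all tested genes. The loci are lower in level than all tested genes, and this share was not compared at like level. The median log2 fold change was 0.105 over the loci and 0.00 over all tested genes. The treatments did not overlap at 210 of the 3468 loci, 6.06%, with a background of 8.6%. The Am580 libraries were the higher at 122 of them (background 3.97% of all tested genes) and the lower at 88 (background 4.63%). Called loci with a log2 fold change of at least 2 in size numbered 101, 2.91% of the class, with a background of 2.01%. The 101 include loci that passed the filter through 1 treatment only. Among the 2159 loci with at least 10 counts in every library such loci numbered 29, 1.34%, and no background was taken at that filter. All 30 loci that passed the filter through 1 treatment were called, as that filter favours, with 25 of them higher, and without them 351 were called, 211 higher and 140 lower. No test of the class against other genes was made.

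**Figure D1:**
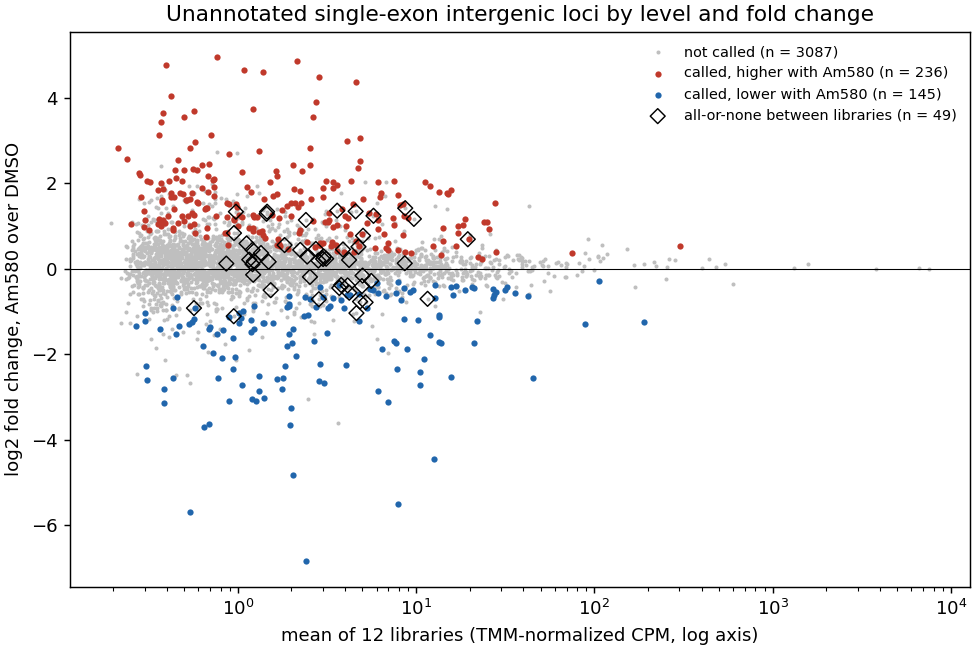
Each point is 1 of the 3468 loci, with its mean level over 12 libraries on a log axis and its log2 fold change, Am580 over DMSO. Called loci are red where higher (236) and blue where lower (145) with Am580, grey loci were not called, and open diamonds mark the 49 loci present in some libraries and absent from others, of which 0 were called.

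The split between higher and lower calls is given next by strand, level and length, with no test of these differences. Among loci with no strand, 187 were higher and 92 lower, so that 67.0% of 279 calls were higher. Among the 796 loci with a strand the split was 49 higher and 53 lower, or 48.0% higher. Level differs here too, with a median of 1.05 CPM without and 3.15 CPM with a strand. Loci with no strand also held 26 of the 30 that passed the filter through 1 treatment only, with 23 of these called higher. By level, 73.6% of 125 calls were higher in loci under 1 CPM, and 36.0% of only 25 calls in loci of 20 CPM or more. Of the 125 calls, 27 were at loci that passed the filter through 1 treatment only, with 23 of them higher. The share called was 5.16% in exons under 500 bases, 8.13% from 500 up to 1000, 12.7% from 1000 up to 2000 and 17.8% from 2000 bases on. Level moves with length, from a median of 0.573 CPM under 500 bases to 3.94 CPM from 2000 bases on. Shares over all tested genes were not taken by strand or length, nor by these levels. Whether such differences are particular to the loci was therefore not tested. Compared at 1 to 5 CPM, 11.7% of the loci and 11.5% of all tested genes were called. Thus at like level the share called was close to the background, whereas the unannotated multi-exon intergenic loci stood at 10% and genes with a reference transcript at 12.3%.

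**Figure D2:**
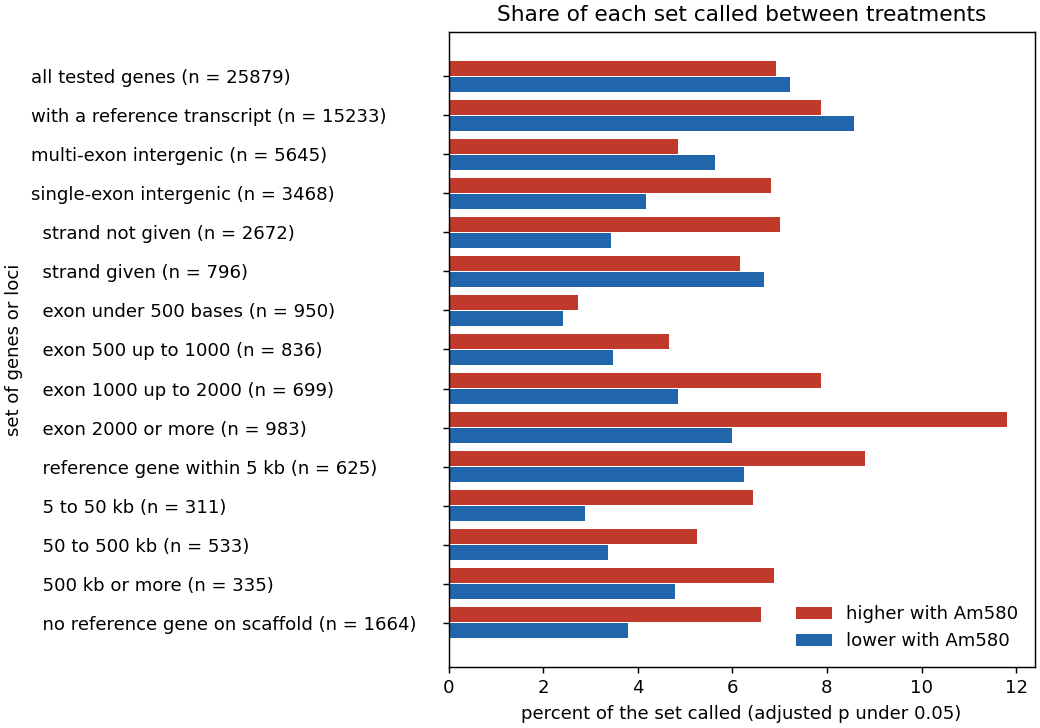
Bars give the percent of each set called higher (red) or lower (blue) with Am580, with the number of genes or loci in each set in brackets. Higher calls exceed lower ones in loci without a strand (7.0% and 3.44%) and in exons of 2000 bases or more (11.8% and 6.0%), and not in loci with a strand (6.16% and 6.66%).

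The largest falls included loci that resemble retroelements. By the study's protein search, 2 of the loci among its 30 leading transcripts, MSTRG.16116 and MSTRG.25599, match LINE-1 proteins, and a further one, MSTRG.1117, has no match there. MSTRG.16116 (AMEXG_0030004661, 1489033 to 1498879, plus strand, 9847 bases) was at 0.554, 1.16 and 1.27 CPM in DMSO libraries and at 0.00, 0.0122 and 0.0522 CPM in Am580 libraries. No Am580 library held more than 2 counts, and the level was at least 11.6-fold lower against 3 counts per library. The locus is one of the 30 that passed the count filter through 1 treatment only, here DMSO, so it had to differ and its test is not given. Its nearest reference gene BABAM2, 212060 bases away, was not called.

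MSTRG.25599 (AMEXG_0030044682, 20776 to 24996, no strand, 4221 bases) was at 1.36, 3.8 and 10.7 CPM in DMSO libraries and at 0.00, 0.00 and 0.219 CPM in Am580 libraries. Only Am580 6 of its treatment held any counts, 9 of them, and every DMSO library was above it. This locus, too, passed the filter through DMSO only, so its test is not given, and the fitted log2 fold change of -6.85 ± 0.89 rests on Am580 6, since it was -10.43 without that library, where the Am580 level is 0 and a fitted value is no bound. MSTRG.1117 (AMEXG_0030000208, 924459 to 928404, no strand, 3946 bases) was at 0.00, 16.1 and 26.6 CPM in DMSO and at 0.00, 0.206 and 0.827 CPM in Am580 libraries. Here DMSO 6 was at 0 and lay among the Am580 libraries, while the other DMSO libraries were at 8.34 CPM or more. The log2 fold change was -5.52 ± 1.09 with an edgeR adjusted p of 0.00384, which became 0.395 with limma-voom and ran from 0.000253 to 0.395 over all alternatives.

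A total of 69 loci of at least 1 CPM were called lower with treatments that did not overlap. The 6 largest falls among them were at MSTRG.25599 and at 5 other loci, which come next. MSTRG.6561 (AMEXG_0030001390, 40359 to 43128, no strand) was at 0.987, 1.85 and 3.89 CPM in DMSO and at 0.0858, 0.207 and 0.679 CPM in Am580 libraries (log2 fold change -3.10 ± 0.48). With 3 to 26 counts in its Am580 libraries, the locus passed the count filter mainly through DMSO, and its test is not given. It lies 19315 bases before the 5′ end of SHC4, an adaptor protein gene, which was at 6.61 ± 1.57 and 6.72 ± 1.13 CPM (SD, n = 6) and was not called. MSTRG.28235, only 332 bases long and alone on its scaffold as far as reference genes go, was at 1.3, 2.3 and 3.44 CPM in DMSO and at 0.143, 0.33 and 0.438 CPM in Am580 libraries (log2 fold change -2.86 ± 0.28, edgeR adjusted p = 1.63e-05). The remaining 3, MSTRG.10828, MSTRG.27980 and MSTRG.8153, lie just past the 3′ end of a reference gene and are described with those genes.

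The 6 loci with the largest rises among those of at least 1 CPM with treatments apart come next. MSTRG.15581 (AMEXG_0030004419, 843143 to 845756, no strand) was at 0.0525, 0.165 and 0.195 CPM in DMSO and at 1.89, 3.94 and 7.04 CPM in Am580 libraries (log2 fold change 4.85 ± 0.39). It is one of the 30 loci that passed the count filter through 1 treatment only, here Am580, so it had to differ and its test is not given. At all 6 loci every Am580 library was above every DMSO library, which their choice required. Its nearest reference gene NUMB, which encodes an inhibitor of Notch signalling, lay 127567 bases away and was not called (10.5 ± 1.36 CPM in DMSO, 8.34 ± 1.31 CPM in Am580 libraries, SD, n = 6).

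MSTRG.22015, on a scaffold with no reference gene, was at 0.00, 0.0339 and 0.357 CPM in DMSO and at 0.488, 2.3 and 2.92 CPM in Am580 libraries (log2 fold change 4.64 ± 0.69, and 6.01 on the log2 scale without DMSO 1). DMSO 1 held 11 counts and no other DMSO library more than 2. The locus thus passed the count filter almost only through Am580, and its test is not given. Replicate 1 of each treatment came closest to the other treatment, DMSO 1 as the highest of its treatment and Am580 1 as the lowest. MSTRG.23401, also without a reference gene on its scaffold, was at 0.0888, 0.274 and 0.369 CPM in DMSO and at 3.31, 5.59 and 7.34 CPM in Am580 libraries (log2 fold change 4.48 ± 0.31). Its DMSO libraries held 3 to 11 counts, so it passed the count filter mainly through Am580 and its test is not given. MSTRG.24946, again with no reference gene on its scaffold, was at 0.474, 0.93 and 1.86 CPM in DMSO and at 5.8, 7.15 and 17.3 CPM in Am580 libraries (log2 fold change 3.05 ± 0.36, edgeR adjusted p = 7.39e-05). Its highest library was Am580 6.

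MSTRG.6144 (AMEXG_0030001278, 8767283 to 8770056, plus strand, 2774 bases) is one of the loci that the study's protein search matched, in this case to a ficolin, a secreted lectin that binds microbial sugars. It was at 0.123, 0.382 and 0.653 CPM in DMSO and at 6.6, 7.76 and 14.8 CPM in Am580 libraries (log2 fold change 4.36 ± 0.34, edgeR adjusted p = 2.96e-06). All Am580 libraries stood well above the DMSO libraries. The nearest reference gene, LOC100552635 at 54856 bases, was also higher (log2 fold change 2.43 ± 0.32, edgeR adjusted p = 0.000205).

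**Figure D3:**
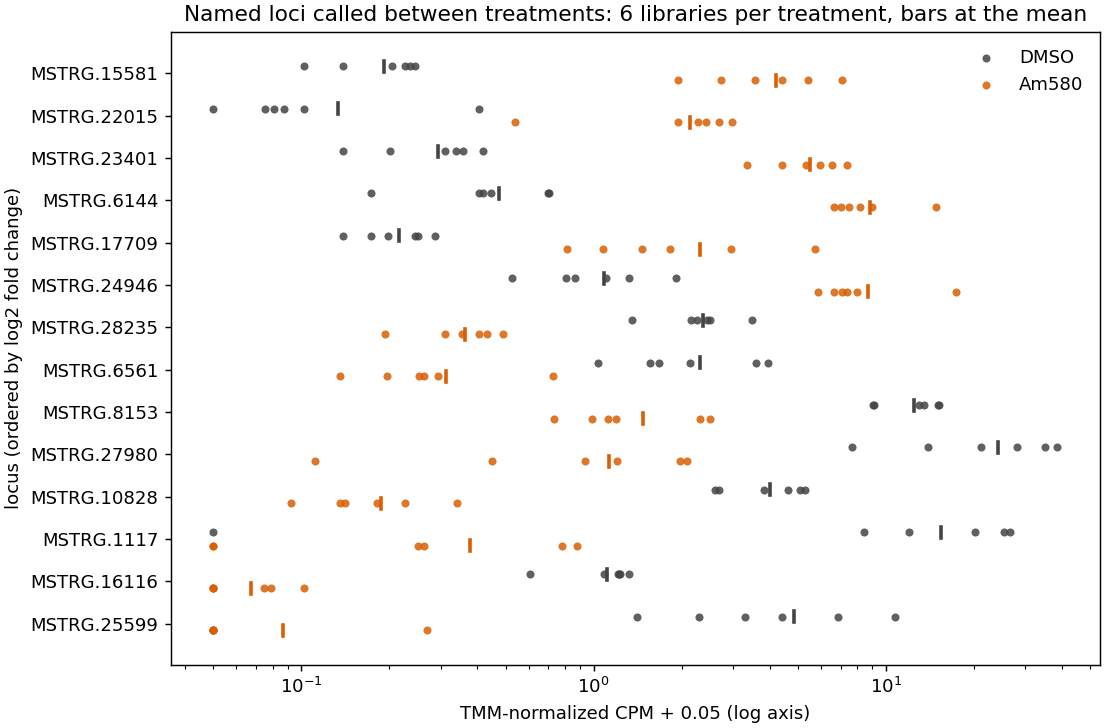
Each row is 1 of the 14 named loci called between treatments, with 6 DMSO (grey) and 6 Am580 (orange) libraries as points and the mean as a bar, on a log axis of CPM plus 0.05. MSTRG.16116, MSTRG.25599, MSTRG.15581 and MSTRG.17709 passed the count filter through 1 treatment only, and the treatments are apart in every row but that of MSTRG.1117, where DMSO 6 is at 0 beside Am580 libraries.

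Many loci lay just past the annotated end of a gene and had fold changes close to that of the gene. Within 5 kb past the 3′ end of the nearest reference gene lay 515 loci, and 16.5% of them were called, against 14.1% of all tested genes and 16.5% of genes with a reference transcript. In 485 pairs the reference gene was tested too. Over these pairs the log2 fold changes of locus and gene had a Pearson r of 0.89 and a Spearman rho of 0.83, given as a description, since both values of a pair come from the same libraries and the reads of 1 transcript can be split between them. Both were called in 55 pairs, and in all 55 they changed in the same direction, 30 lower and 25 higher. In 28 pairs the gene alone was called and in 27 the locus alone. For 224 of the 515 the strand was given, and it was the strand of the gene in 164.

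By distance, Pearson's r was 0.91 within 1 kb past the 3′ end (n = 264 pairs), 0.88 at 1 to 5 kb (n = 221), 0.53 at 5 to 50 kb (n = 191), 0.08 at 50 to 500 kb (n = 187) and 0.31 from 500 kb on (n = 114). Spearman's rho in the same bins was 0.85, 0.81, 0.57, 0.14 and 0.08, so the higher r in the farthest bin was not seen in ranks. On the 5′ side Pearson's r was 0.53 within 1 kb (n = 40), 0.53 at 1 to 5 kb (n = 20), 0.00 at 5 to 50 kb (n = 57), 0.18 at 50 to 500 kb (n = 192) and 0.07 from 500 kb on (n = 120). In all, 67 loci within 50 kb were called together with their nearest reference gene, and 65 went the same way. Both exceptions lay before the 5′ end, MSTRG.7743 beside FAM184B and MSTRG.8266 beside CCNG2. These bins and the correlations were not tested against each other.

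**Figure D4:**
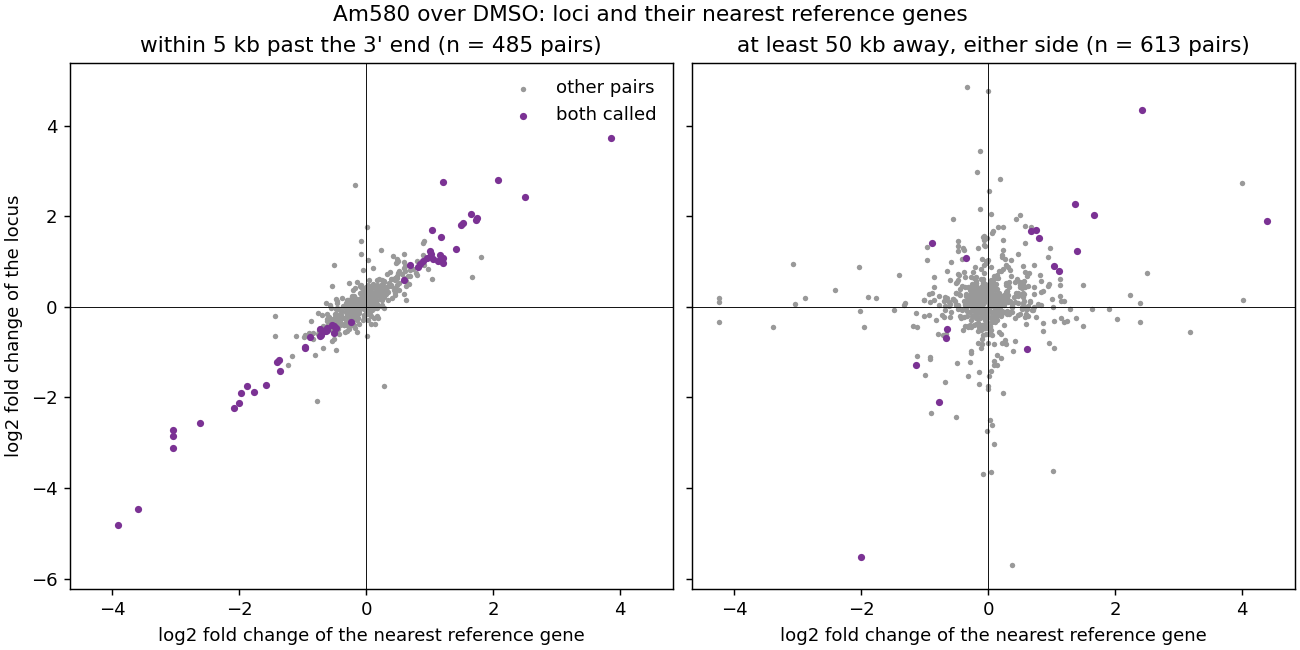
Log2 fold change of a locus (vertical) against that of its nearest reference gene (horizontal), Am580 over DMSO, for 485 pairs within 5 kb past the 3′ end of the gene (left) and 613 pairs at least 50 kb apart (right), with pairs called in both in purple. The left points follow a rising line (r = 0.89) and the right points form a cross around 0 (r = 0.14).

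The 4 named pairs of this kind differ in function. MSTRG.10828 lies 3362 bases past SIGLEC15, a receptor of osteoclasts that takes part in their fusion, and was at 2.56, 4.19 and 5.24 CPM in DMSO and at 0.0425, 0.111 and 0.292 CPM in Am580 libraries. Every Am580 library was below every DMSO library for locus (log2 fold change -4.82 ± 0.38) and gene (-3.91 ± 0.30), the latter falling from 263 ± 49.1 to 17.5 ± 8.53 CPM. At the locus Am580 6 held 12 counts and no other Am580 library more than 7. It thus passed the count filter almost only through DMSO, and its test is not given. The summed osteoclast markers given above fell alongside, and their part in this was not tested.

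MSTRG.8153 lies 2825 bases past HHIP, which encodes a membrane protein that binds Hedgehog ligands and dampens the signal. It was at 8.98, 13.2 and 15.2 CPM in DMSO and at 0.681, 1.1 and 2.46 CPM in Am580 libraries (log2 fold change -3.12 ± 0.31, edgeR adjusted p = 2.1e-05). HHIP itself was far lower in counts, at 0.981 ± 0.281 CPM in DMSO and 0.116 ± 0.0502 CPM in Am580 libraries, the latter close to the limit of detection. Its fold change was nearly the same (-3.04 ± 0.31) but rests on few Am580 counts. Most counts at this place were thus in the unannotated 8768 bases and not in the gene.

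MSTRG.27980 begins 59 bases past LOC108795624 and was at 7.62, 24.6 and 38.6 CPM in DMSO and at 0.061, 1.02 and 2.04 CPM in Am580 libraries (log2 fold change -4.46 ± 0.60, edgeR adjusted p = 0.000218). The treatments were apart, and the gene fell too (-3.60 ± 0.34). MSTRG.17709 lies 1996 bases past MLXIPL, which encodes the carbohydrate-responsive transcription factor ChREBP. It was at 0.0888, 0.171 and 0.236 CPM in DMSO and at 0.764, 1.59 and 5.67 CPM in Am580 libraries (log2 fold change 3.73 ± 0.52), beside 3.87 ± 0.60 for the gene. This locus also passed the count filter through Am580 only, so its test is not given. MLXIPL itself was at only 0.0573 ± 0.0491 CPM in DMSO and 0.901 ± 0.745 CPM in Am580 libraries. The former is under the limit of detection, so the fold change of the gene rests on few DMSO counts.

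Further pairs within 5 kb past the 3′ end are given as examples that were chosen after their values were seen. Past COL8A2, a short-chain collagen gene, MSTRG.13597 and MSTRG.13598 had log2 fold changes of -2.85 and -2.72, beside -3.04 for the gene. Past AQP9, a channel for water and glycerol, MSTRG.17533 had -2.57, beside -2.62. Past the gene of the growth factor TGF-alpha, MSTRG.19611 had -1.71, beside -1.58, with a mean of 20.7 ± 4 CPM in DMSO libraries.

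On the rising side, MSTRG.14223 past RBPMS, an RNA-binding protein gene, went from 5.01 ± 0.58 to 19.1 ± 2.88 CPM (SD, n = 6; log2 fold change 1.93, beside 1.73 for the gene). MSTRG.3873 past MKX, a homeobox gene of tendon, had 1.69 beside 1.04, MSTRG.13539 past SEMA5B, a semaphorin, 1.23 beside 1.01, and MSTRG.5477 past NCOA3, a coactivator of nuclear receptors, 1.02 beside 0.90. MSTRG.7169 and MSTRG.7170 past MARCO, a scavenger receptor of macrophages, had 1.08 and 0.96 beside 1.22. Of these 2 loci, MSTRG.7170 was close to the limit of detection and its treatments overlapped (0.199 ± 0.0804 CPM in DMSO, 0.392 ± 0.0904 CPM in Am580 libraries, SD, n = 6). The summed macrophage markers given above, for 4 of 8 listed symbols, were lower with Am580, and their part in the values at MARCO was not tested. All of these loci and genes had an edgeR adjusted p under the threshold.

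In 181 of the 485 pairs (37.3%) the locus held more counts than the gene it follows, and per kilobase of exon it did so in 220 (45.4%). Loci also lay near each other. Another of the loci lay within 5 kb for 535, which formed 285 nearest pairs, and in the 11 pairs with both called the direction was the same in all 11.

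The surroundings of listed genes were searched too. Of 36 reference genes found from lists of retinoid pathway genes, proximal and distal patterning genes and the study's 30 leading transcripts, which were chosen on these same samples, 1 had one of the loci within 100 kb. This was DHRS3, which encodes a retinaldehyde reductase and rises with retinoic acid signalling, with MSTRG.5213 at 68014 bases before its 5′ end. MSTRG.5213 was at 0.00, 0.166 and 0.444 CPM in DMSO and at 0.00, 1.32 and 2.53 CPM in Am580 libraries. All Am580 libraries but Am580 3, which was at 0, lay above the DMSO libraries, and the difference did not pass (log2 fold change 2.73 ± 0.97, edgeR adjusted p = 0.085). DHRS3 itself rose from 18.2 ± 1.72 to 293 ± 39.7 CPM (SD, n = 6; log2 fold change 4.01 ± 0.11, edgeR adjusted p = 8.43e-10). The edgeR adjusted p of MSTRG.5213 was 0.0269 without Am580 3 and 0.0335 with edgeR's current quasi-likelihood form, and over all alternatives it ran from 0.0269 to 0.333.

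Other loci varied between animals within a treatment. They were present in some libraries, with at least 30 counts, and absent from the others, with at most 3, with no library in between. This all-or-none presence was found for 49 of the 3468 loci, 1.41%, against 0.607% of all tested genes. At 1 to 5 CPM, the shares were 2.66% of the loci and 1.52% of all tested genes. Unannotated loci that overlap a reference gene stood close to the loci, at 2.43%. The share was 1.47% of unannotated multi-exon intergenic loci and 0.952% of genes with a reference transcript. None of the 49 was called with edgeR, 0 had an unadjusted p under 0.05 and the smallest adjusted p was 0.455. Of the 6 all-or-none loci named below, limma-voom called 1, MSTRG.27380 (adjusted p = 0.0407). Its calls at the rest of the 49 are not given here. No locus was absent from every library of a treatment. Of 147 absences, 77 fell in DMSO and 70 in Am580 libraries. A total of 25 loci were absent from libraries of both treatments, 11 from DMSO libraries only and 13 from Am580 libraries only.

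Absence was from 1 library for 11 loci, from 2 for 13, from 3 for 9, from 4 for 4, from 5 for 5 and from 6 for 7. The count filter allows absence from no more than 6 libraries, so loci present in fewer than 6 are not counted here. The absent libraries held 0 counts in 31 of the 49. Levels where present ranged from 1.14 to 23.4 CPM with a median of 3.39 CPM. A wide gap between absent and present libraries was required by the choice of these loci. Each library lacked between 9 and 18 of the 49, the most in DMSO 6 and Am580 2 (18 and 17). DMSO 6 also had the most loci at 3 counts or fewer over the whole class, 229 against 69 to 135 in the other libraries. The exons of the 49 were 454 to 11984 bases long with a median of 2770 bases, 40 had no strand, and 26 lay on a scaffold with no reference gene. The threshold is arbitrary in part. Of 644 loci with a library at 3 counts or fewer, the lowest other count was 4 to 9 in 472 and 10 to 29 in 123, with the nearest value below the threshold at 28 and the nearest above it at 30.

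The 6 highest of these loci show the pattern. MSTRG.28797 (AMEXG_0030111594, 8815 to 16902, plus strand, 8088 bases) had 0 counts in DMSO 2 and Am580 2 and 292 to 1521 counts in each other library. MSTRG.3582 (AMEXG_0030000689, 1704976 to 1712096, minus strand, 7121 bases) had 0 counts in DMSO 2, 5 and 6 and in Am580 2, 4 and 5, and 389 to 819 counts in the rest. Presence thus split each treatment evenly, and the means were 8.26 ± 9.3 CPM in DMSO and 9.03 ± 10.1 CPM in Am580 libraries (SD, n = 6). MSTRG.19431 had 0 counts in Am580 2 and Am580 4 and 257 to 935 counts in the others.

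MSTRG.18612 had at most 3 counts in DMSO 3, DMSO 4 and Am580 3, and 225 to 1200 in the rest. MSTRG.27380 was absent from DMSO 3, 5 and 6 and present in all Am580 libraries, with medians of 2.99 CPM in DMSO and 9.85 CPM in Am580 libraries. The treatments overlapped (log2 fold change 1.41 ± 1.07, edgeR adjusted p = 0.464). MSTRG.8511 was absent from DMSO 1, 2, 5 and 6 and from Am580 1 and 5, with 263 to 406 counts where present.

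**Figure D5:**
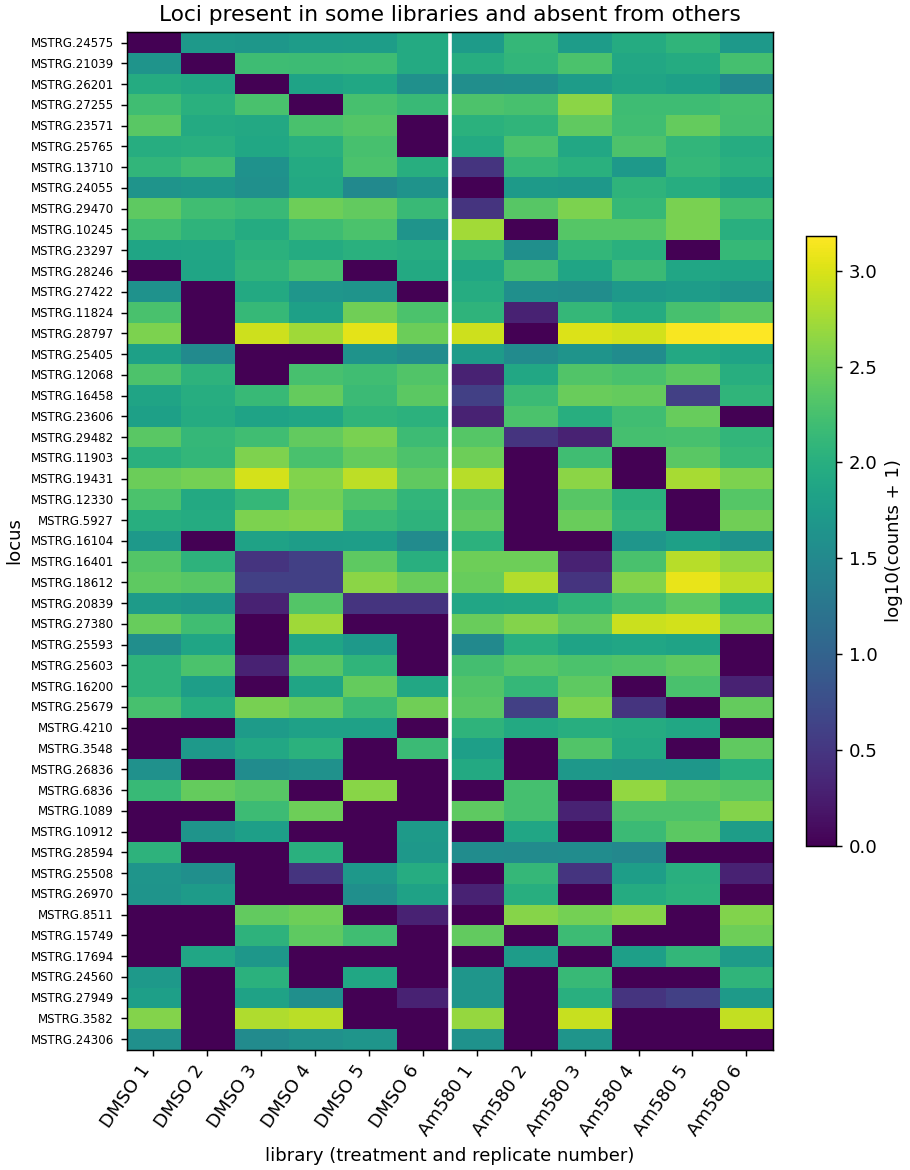
Counts of the 49 loci (rows) in the 12 libraries (columns) as log10 of counts plus 1, with DMSO left and Am580 right of the white line. Dark cells are absences (at most 3 counts), which number 77 in DMSO and 70 in Am580 libraries and form 38 patterns.

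Several of the loci shared their pattern of libraries, and all 49 lay on separate scaffolds. The number of shared patterns to be had by chance was not computed. For the 11 loci absent from 1 library only 12 patterns can occur. There were 38 patterns, and 10 of them were shared by 21 loci. MSTRG.27949 was absent from the same 6 libraries as MSTRG.3582, with 37 to 101 counts in the remaining 6. MSTRG.16401 was absent from DMSO 3, DMSO 4 and Am580 3, as was MSTRG.18612. MSTRG.20839 lacked the same libraries as MSTRG.27380, MSTRG.11824 the same as MSTRG.28797, and MSTRG.11903 the same as MSTRG.19431. The most common pattern, absence from Am580 1 alone, was held by 3 loci, MSTRG.24055, MSTRG.13710 and MSTRG.29470. Scaffolds of this assembly are not placed relative to each other in the files, and the relatedness of the animals is not given in the sources used here.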

How the data were processed

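RNA from 12 blastema mesenchymes (6 Am580, 6 DMSO) was sequenced, 1 library per animal. Per the study's methods and the submitters' processing notes, reads were trimmed with Trimmomatic 0.36, aligned to AmexG_v3.0.0 with HISAT2 2.1.0, assembled with StringTie 1.3.4d and counted per gene with featureCounts (Subread 1.6.2, reverse-stranded, paired). The deposited table holds raw counts, and the authors' merged annotation gives the coordinates used to choose loci (unit other, 1-based positions). A second deposited table of normalized abundance (a signal per gene) equalled TMM-scaled CPM of the genes kept by filterByExpr and was used only for that check. How strandless loci were treated in stranded counting is not given in the sources used here.

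After removal of genes under 10 counts in more than 6 libraries, the rest were fitted with edgeR 4.0.16 in R 4.3.3 (TMM, glmQLFit and glmQLFTest in the legacy form, treatment as the term, Benjamini-Hochberg adjustment over 25879 genes, threshold 0.05), after a test on simulated data. Totals were 27226012 to 43793138 counts. Precision is limited at low counts, and floors of 3 counts cover counting error only. All-or-none loci had at most 3 or at least 30 counts in every library. The loci named are those among the study's 30 leading transcripts, the 6 per direction with the largest fold change among called loci of at least 1 CPM with treatments apart, the 4 highest, the 6 highest all-or-none loci, the 4 with the largest fold change beside a called reference gene within 50 kb, and those within 100 kb of listed genes. The loci and lists were chosen with earlier results of these data known. Alternatives used DESeq2 1.42.0, limma 3.58.1, other scalings and filters, thinning, a replicate block, and each library left out. No sequence is printed because no genome of the files' build was used here. Tables and figures were made with Python 3.11.15, pandas 2.3.3 and matplotlib 3.10.9.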

Additional observations from a re-analysis of the deposited data

Results flagged for a closer look

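In 13 of the 50 sets of 6 libraries (25 named loci in 2 treatments), the highest or lowest library stood farther from the other 5 than Dixon's critical value allows. For normally distributed values chance gives about 1 in 20. That rate does not hold for low counts tied at 0 or for loci chosen for extreme values, so 13 of 50 cannot be judged against it. The distances were taken on the scale of log2(CPM + 0.25), while the values below are plain CPM. MSTRG.1117 was at 0.0 CPM in DMSO 6 (8.34 to 26.6 CPM in the others), MSTRG.16116 at 0.554 CPM in DMSO 2 (1.04 to 1.27) and MSTRG.25599 at 0.219 CPM in Am580 6 (0 in the others). MSTRG.22015 was at 0.357 CPM in DMSO 1 (0 to 0.0525) and at 0.488 CPM in Am580 1 (1.9 to 2.92). MSTRG.6144 was at 14.8 CPM in Am580 3 (6.6 to 8.9) and MSTRG.24946 at 17.3 CPM in Am580 6 (5.8 to 7.9). Of the most abundant loci, MSTRG.28647 was at 3520 CPM in Am580 4 (7410 to 9570) and MSTRG.4116 at 1590 CPM there (3680 to 5160). Of the all-or-none loci, which were chosen for such gaps, MSTRG.28797 was at 0.0 CPM in DMSO 2 (9.01 to 29.4) and at 0.0 CPM in Am580 2 (24.2 to 37.0), and MSTRG.18612 at 0.0507 CPM in Am580 3 (8.48 to 25.5). MSTRG.5213 was at 0.0 CPM in Am580 3 (1.04 to 2.53).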

How the results depend on the processing

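The count of 381 called loci ranged from 343 to 512 under the other scalings, tests, filters and thinning, except that the filter of at least 10 counts in every library left 2159 loci, of which 251 were called (151 higher). Leaving out 1 library gave 292 (without DMSO 5) to 363 called, 167 to 230 higher and 120 to 152 lower. Of the 381, 231 were called in all 12 of these fits, 376 by DESeq2 and 337 by limma-voom. Scaling by library size alone moved the median of all genes to 0.05 and of the loci to 0.16 on the log2 scale, with 276 higher and 125 lower. Deviations from treatment means had correlations of -0.17 to 0.23 between same-numbered libraries. Differently numbered libraries were not compared, so whether the replicate numbers mark pairs cannot be decided from this. With the replicate block 355 loci were called, of which 297 were among the 381, while MSTRG.1117 had an edgeR adjusted p of 0.0584. With loci under 10 kb from a reference gene left out, 270 of 2725 were called, and with those under 50 kb left out 258 of 2532, both with the 1664 loci (173 called) whose scaffold holds no reference gene and whose distance is thus unknown. Chosen after the data were seen, loci with a strand gave 102 calls (49 higher, 53 lower), and those that overlap no other locus 340. All-or-none presence held for 31 loci with absence at 0 counts, 172 with presence from 10 counts, 15 from 100 counts and 41 after thinning. For the 14 named called loci, 298 of 300 values under other settings kept direction and call, both exceptions being MSTRG.1117. These loci were chosen for large changes, which favours kept calls. MSTRG.16116, MSTRG.25599, MSTRG.15581 and MSTRG.17709 passed the filter through 1 treatment only, so their kept calls are no support. These 4 loci also fell under the filter in some of these settings and have 17 values each. MSTRG.22015 and MSTRG.10828 passed the filter almost only, and MSTRG.23401 and MSTRG.6561 mainly, through 1 treatment, so their kept calls are no support either. Without 1 library, MSTRG.25599 ran from -10.43 to -6.55 and MSTRG.22015 from 4.38 to 6.01. Values near 0 changed sign. For MSTRG.28647, -0.0048 became 0.0034 (10 counts in every library), 0.0542 (library size), 0.0037 (limma-voom), 0.0076 (replicate block) and 0.0223 (upper quartile), and -0.1284 to 0.1441 without 1 library. For MSTRG.15466 the range without 1 library was -0.0721 to 0.1033, for MSTRG.4116 -0.1525 to 0.1744 (-0.0002 with no filter), for MSTRG.7263 -0.0288 to 0.2342 and for MSTRG.3582 -0.1401 to 0.3952 (-0.3157 with limma-voom), which fell under the filter where a library that holds it was left out. The causes were not tested.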
